A study of Mus musculus with 12 samples.

Results

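This report concerns the transcripts that make up much of the mouse liver's RNA and are nearly absent from the heart. They were chosen by level alone: a length under 12000 nt, a mean of at least 200 CPM (reads divided by the library's total and multiplied by 1000000) over 6 livers, and a liver mean at least 100 times the mean of 6 hearts plus 0.01 CPM. The rule was met by 228 of 51884 transcripts, or 0.439%. A further 317 transcripts reached 200 CPM in the liver at the same length limit without meeting the ratio, and they serve as the comparison. The libraries came from 6 Swiss Webster mice, an outbred strain, aged 6 to 8 weeks, with 1 liver and 1 heart library per mouse and 3 mice per group. Treated mice had received TDI-011536, an inhibitor of the Lats kinases that the labels call LKI-2, at 200 mg/kg into the peritoneum 4 h earlier. The labels list no agent for the controls, although the protocol text describes the injection for every animal, and the study describes vehicle injections for its controls. Total estimated reads ranged from 24575658 to 31243782 per liver and from 12618288 to 20533986 per heart, with the heart of treated mouse 3 the shallowest.

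The liver devotes most of its messenger RNA to relatively few jobs, above all the secretion of plasma proteins and lipoprotein components and the enzymes of metabolism and detoxification, and most of this output comes from one cell type, the hepatocyte. The Lats kinases phosphorylate the coactivators Yap and Taz and keep them out of the nucleus. In the liver this pathway is known for restraining organ size, and forced Yap activity in hepatocytes is known to erode their differentiated state. The deposited tables name transcripts by UCSC identifiers that no table used here pairs with genes, so the roles of single transcripts, cell type markers and sequences were not analysed here. Transcripts are named below by identifier where they rose or fell most, and otherwise by their rank in mean liver CPM and their length.

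The 228 transcripts held about one read of every 2 in the liver. Their summed level was 494974, 480655 and 487433 CPM in the livers of control mice 1, 2 and 3, and 530990, 552379 and 520466 CPM in those of treated mice 1, 2 and 3. In the hearts the same sum was between 249.5 and 585.2 CPM, or 0.0250% to 0.0585% of the library. The levels in the 2 organs chose the transcripts and are therefore given without a test. The median transcript of the set had a mean of 576.4 CPM in the liver and 0.210 CPM in the heart. Of the 228, 185 exceeded the heart by more than 1000-fold on the rule's scale, and the middle of the distribution, from the lower to the upper quartile, ran from 1713-fold to 6797-fold. At the liver limit, the members just inside had 201.0 and 202.1 CPM, and the transcripts just outside 199.2 and 198.1 CPM. At the ratio limit, the values were 100.5 and 102.9 inside and 89.8 and 85.8 outside.

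**Figure D1:**
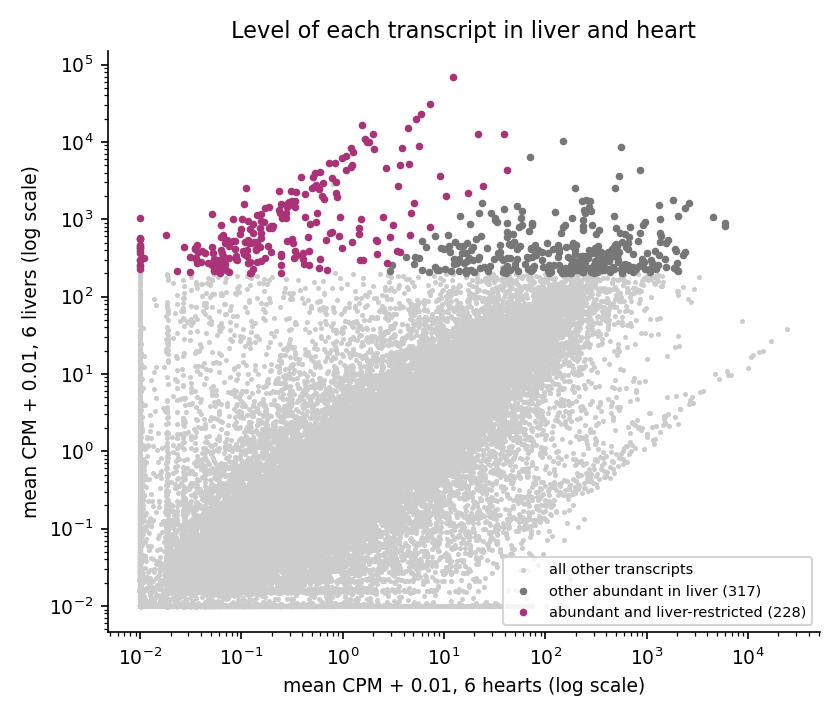
Mean CPM of each transcript in 6 livers (vertical) against 6 hearts (horizontal), both on log axes with 0.01 CPM added. The 228 selected transcripts lie at 200 CPM or more in the liver and at least 100 times their heart level, apart from the 317 other transcripts that are abundant in the liver.

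A small number of transcripts carried most of this mass. The most abundant one, of 2061 nt, had 72413, 82785 and 54643 CPM in control livers and 60785, 60959 and 80049 CPM in treated livers. By itself it held 5.46% to 8.28% of the reads of a liver. The groups overlapped. Their means, 69947.3 ± 14231.9 CPM in control and 67264.5 ± 11072.3 CPM in treated livers (SD, n = 3 each), differed by less than either SD. The top 10 of the set together held 18.1% to 25.8% of a liver library, the top 20 held 27.2% to 33.5%, and the top 50 held 76.6% to 79.7% of the reads of the set. Of the 20 most abundant liver transcripts under 12000 nt, 18 belonged to the set. At the other end, 146 of the 228 had a mean between 200 and 1000 CPM.

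Short transcripts stood out when length was taken into account. Read counts grow with length, so levels of different transcripts were compared as TPM, in which counts are divided by effective length and rescaled to a sum of 1000000 per library. Of the 10 transcripts of the set highest in TPM, 9 were shorter than 1000 nt, against 5 of the 10 highest in CPM. The highest in TPM was a transcript of 907 nt, at a mean of 45495 TPM, ahead of the 2061 nt transcript at 37566 TPM. The 36 transcripts shorter than 1000 nt had a summed level of 293533, 220425 and 356469 TPM in control livers and 368838, 373550 and 290761 TPM in treated livers. The 2 groups overlapped. The length classes were chosen after the values were seen.

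Among the estimated counts, 133 of the 228 transcripts had fractional values in at least 1 liver, which arise where reads fit several transcripts and are divided among them. Whole counts in all 6 livers were found for 65. For 30 others this could not be judged in the liver, because values from 100000 reads upward are printed without decimals. Some of the 30 had fractional reads in the heart, among them ranks 2 to 6, so their reads are divided as well. Others, such as ranks 1, 7 and 9, had whole reads in each heart. Of the 36 short transcripts, 26 had divided and 2 had whole counts. A divided count can shift between near-identical transcripts, so single values of this class are less certain than those of the 65.

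The summed level of the set was larger in each treated liver than in each control liver. In CPM it averaged 487687 ± 7163 (SD, n = 3) in control and 534612 ± 16262 (SD, n = 3) in treated livers, a difference of 4.69 percentage points of the library. The two-sided exact permutation test gave p = 0.1, the smallest value that 3 against 3 mice allow. The comparison set of 317 transcripts moved the other way, from 181719 ± 1630 to 171336 ± 3928 CPM (SD, n = 3 each), again without overlap and with p = 0.1 by the same exact test. The direction for the 317 depended on the scaling, while that for the 228 stayed the same. With TMM factors, described below, the sum of the 228 was 441418 ± 12257 in control and 597461 ± 47575 CPM in treated livers, and that of the 317 was also higher in treated livers, at 164447 ± 1295 and 191148 ± 5090 CPM (SD, n = 3 each). Neither overlapped between groups (two-sided exact permutation test, p = 0.1 for each). A share of a library is relative, so a larger share of one set lowers the shares of the rest. In TPM the summed levels of the 228 overlapped between groups, at 457982 to 521527 in control and 517460 to 580147 in treated livers (two-sided exact permutation test, p = 0.2).

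Most of this difference in CPM, 40608 of 46925, was in the short transcripts. The 36 below 1000 nt summed to 150014, 98633 and 189663 CPM in control livers and to 206410, 204409 and 149315 CPM in treated livers. These values overlapped (two-sided exact permutation test, p = 0.3). The other 192 transcripts averaged 341584 ± 42227 CPM in control and 347900 ± 23285 CPM in treated livers (SD, n = 3 each), less than the spread among mice of a group (two-sided exact permutation test, p = 0.9). After TMM scaling the longer ones did not overlap, at 308911 ± 35455 and 388066 ± 24858 CPM (SD, n = 3 each, two-sided exact permutation test, p = 0.1). The 65 transcripts with whole counts averaged 50844 CPM in control and 51735 CPM in treated livers and overlapped (two-sided exact permutation test, p = 0.8). The 133 with divided counts averaged 114545 CPM in control and 116962 in treated livers and overlapped (two-sided exact permutation test, p = 0.6). The 30 that could not be judged in the liver averaged 322298 CPM in control and 365914 CPM in treated livers. Their groups did not overlap (two-sided exact permutation test, p = 0.1). These 30 held 43616 of the 46925 CPM, and 8 of them were shorter than 1000 nt. Ranks 2 to 6 are among these 8, and their reads were fractional in the heart. In the livers of control mouse 2 and treated mouse 3, where short transcripts were low relative to their group, the longer ones were highest in their group. With bulk tissue, fewer cells of a type and less RNA per cell cannot be told apart.

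**Figure D2:**
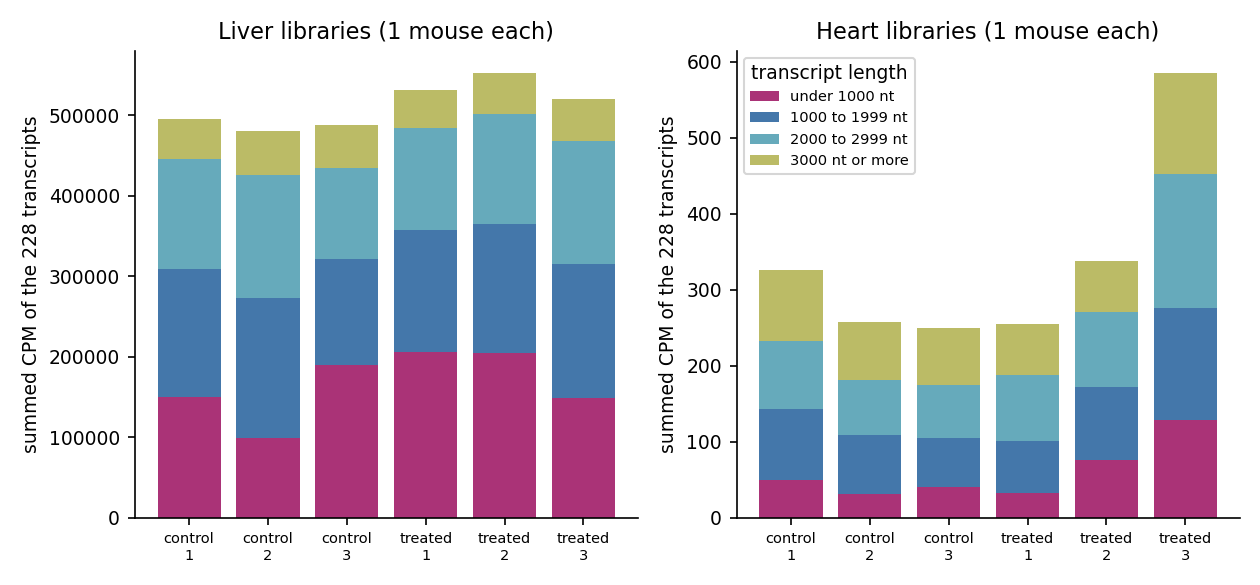
Summed CPM of the 228 transcripts in each liver (left) and heart (right) library, 1 mouse each, divided by transcript length; the vertical axes differ about 1000-fold. Livers lie between 480655 and 552379 CPM, with all 3 treated above all 3 controls, and the class under 1000 nt varies most, from 98633 to 206410 CPM.

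Single transcripts responded to TDI-011536 in the liver, and most that passed the test rose. The question was which of these liver-restricted transcripts differ between 3 treated and 3 control livers. The rule did not use this contrast, but it used the mean of all 6 livers, so a transcript near 200 CPM could enter through the group in which it was high. Of the 228, 227 passed the filter on low counts. By edgeR's quasi-likelihood test with Benjamini-Hochberg adjustment over all 20628 transcripts tested, 27 were higher and 3 were lower at an adjusted p under 0.05, and 197 did not pass. The 27 make 11.9% of the set, against 6.09% of all transcripts tested, and the 3 make 1.32%, against 3.37% of all tested. Over the 207 tested transcripts with both group means at 200 CPM or more, 19 (9.18%) were higher and 2 (0.966%) lower. In either direction 9.46% of all transcripts passed. At an unadjusted p under 0.05, 58 of the set were higher and 10 lower by edgeR, or 30.0% together, against 24.4% of all. All treated livers lay above all controls in 63 of the 227 (27.8%, against 17.6% of all tested) and below them in 12 (5.29%, against 17%), on TMM-scaled CPM. The 317 other abundant transcripts had 49 higher (15.5%) and 12 lower (3.79%), so the share of rising transcripts in the liver-restricted set was no larger than in the comparison set. The difference between the sets was not tested. Of the 27, 13 rose by more than 2-fold after TMM scaling, and 0 of the 3 fell by more than 2-fold. Over all transcripts tested, 858 of the 1256 called higher and 440 of the 696 called lower changed by more than 2-fold. In the comparison set these were 33 of 49 and 0 of 12. The lowest log2 fold change in the set of 228 was -0.9995. The 13, and the counts at an unadjusted p and by overlap, cover the whole set. They include transcripts that entered through 1 group.

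These counts depended on the scaling, and they fell when any 1 liver was left out. TMM, the scaling used, assumes that most transcripts do not change, and gave factors of 1.10 to 1.12 in control and 0.853 to 0.950 in treated livers. With library totals alone, the median log2 fold change of all transcripts tested moved from -0.02 to -0.32, and 14 transcripts of the set were higher and 12 lower, so that 53.8% of calls were higher instead of 90.0%. Under this scaling 3.75% of all transcripts were higher and 9.08% lower. Of the 14, 11 rose by more than 2-fold, and 3 of the 12 fell by more than 2-fold. Over all transcripts, 555 of the 774 called higher and 942 of the 1872 called lower changed by more than 2-fold. The balance of the other counts turned as well, in the set and over all transcripts tested. All treated livers lay above all controls in 30 of the set (13.2%, against 10.2% of all tested). They lay below all controls in 54 (23.8%, against 30.4% of all tested). At an unadjusted p under 0.05, 27 of 227 were higher and 41 lower by edgeR. Over all 20628 tested, 1579 were higher and 4497 lower. All 27 and all 3 kept their direction, and 14 of the 27 and the 3 passed again. The median of the set, 0.22 on the log2 scale with TMM and -0.086 with totals, lay above the median of all transcripts by 0.24 and 0.23 in turn. For the 317 comparison transcripts this distance was 0.12 under both scalings. DESeq2 called 51 higher and 8 lower, among them the 27 and the 3, where it called 10.2% of all transcripts higher and 7.28% lower. By limma-voom 27 were higher and 5 lower, against 6% and 3.44% of all. Leaving out 1 liver gave 9 to 18 higher and 0 to 2 lower. Each of these fits has fewer samples, and the part of this in the lower counts was not tested. The higher count fell to 12, 9 and 11 without control mice 1, 2 and 3 and to 16 and 13 without treated mice 2 and 3. The lower count fell to 0 without control mouse 2, where 7 were lower at an unadjusted p under 0.05 by edgeR, and to 1 without control mouse 3, treated mouse 1 or treated mouse 3.

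A part of the set reached 200 CPM through 1 group. In 208 of the 228 both group means were at least 200 CPM. For 10 transcripts the control mean was under 200 CPM and 8 of them were called higher. For another 10 the treated mean was under 200 CPM and 1 of them was called lower. These 20 entered the set through the livers in which they were high, so their direction is partly fixed by the rule and their counts are a description.

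**Figure D3:**
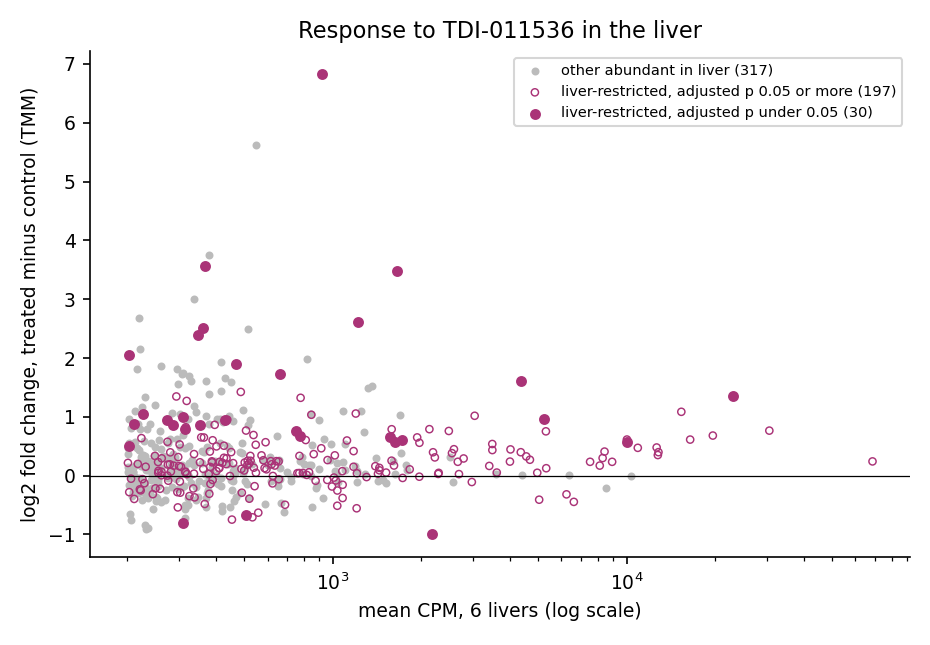
The log2 fold change between 3 treated and 3 control livers after TMM scaling, against the mean CPM of 6 livers (log axis), for 227 liver-restricted transcripts (purple, filled at an adjusted p under 0.05) and 317 other abundant ones (gray). Filled points number 27 above and 3 below 0, and of the 23 transcripts at 5000 CPM or more 20 lie above 0 under this scaling.

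The transcripts named from here on were picked for an adjusted p under 0.05 and for groups that do not overlap. Both are therefore given as a description. The largest rise belonged to uc007hzh.2, of 1520 nt and whole counts. It had 21.7, 15.9 and 21.2 CPM in the livers of control mice 1, 2 and 3, and 1759, 1577 and 2127 CPM in those of treated mice 1, 2 and 3. The groups were far apart, and the ratio of their mean CPM was 93.0. By edgeR it rose by 6.83 on the log2 scale, with a standard error of 0.21 and an adjusted p of 0.000860. It is one of the transcripts that entered the set through the treated livers. In the hearts it had 0, 1 and 0 reads in controls and 0, 5 and 8 reads in treated mice, too few to be tested.

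Transcript uc009nxe.1, of 1839 nt, was next among those with whole counts. Control livers had 449, 492 and 285 CPM and treated livers 2358, 1842 and 1880 CPM. All treated livers lay above all controls, and edgeR gave an adjusted p of 0.00580 for a difference of 2.61 on the log2 scale, with a standard error of 0.24. Its heart reads were 111, 77 and 75 in controls and 85, 134 and 47 in treated mice, and these overlapped (edgeR, adjusted p = 0.855).

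The largest fall belonged to uc008qpr.2, of 3294 nt and whole counts. Its level was 3287, 3161 and 2860 CPM in control livers and 1171, 1176 and 1439 CPM in treated livers, without overlap. By edgeR it fell by 0.9995 on the log2 scale, with a standard error of 0.12 and an adjusted p of 0.00964. Without control mouse 2 the adjusted p from edgeR was 0.0511. In the hearts it had 505, 330 and 514 reads in controls and 195, 279 and 152 in treated mice. As CPM the heart groups did not overlap, at 16.1 to 25.6 in controls and 10.4 to 14.5 in treated mice, and the heart difference did not pass (edgeR, log2 fold change -0.80, adjusted p = 0.306).

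Transcript uc007huh.1, of 2528 nt and whole counts, was lower as well. It had 387, 428 and 453 CPM in control and 195, 207 and 184 CPM in treated livers. The groups did not overlap, and edgeR gave an adjusted p of 0.0154 for a fall of 0.81 on the log2 scale, with a standard error of 0.12. The adjusted p from edgeR was 0.0702, 0.0572, 0.0569 and 0.0588 without control mice 2 and 3 and treated mice 1 and 3 in turn. Its treated mean was 195.5 CPM, so it is one of the transcripts that entered the set through the control livers. Its reads in the heart, 7 to 14 per library in both groups, overlapped.

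**Figure D4:**
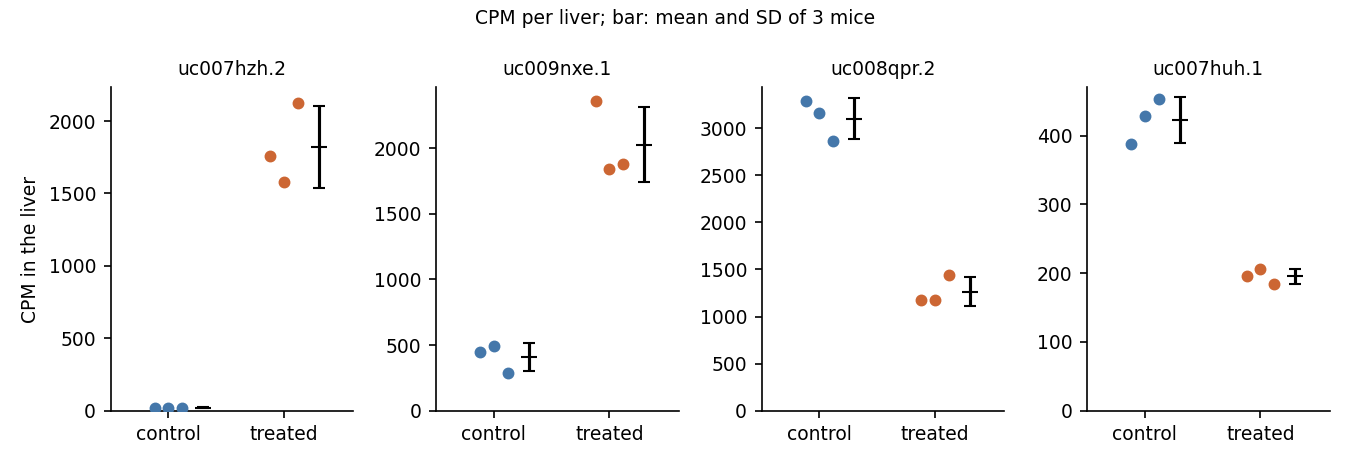
CPM in each liver (points) with the mean and SD of 3 mice (bars), for the 2 transcripts that rose and the 2 that fell under the naming rule; the vertical axes start at 0 and differ between panels. In each panel the 3 treated livers lie apart from the 3 controls, as for uc007hzh.2 at 1577 to 2127 against 15.9 to 21.7 CPM.

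Other rises were spread over the range of abundance. The transcript of rank 163 (2653 nt) had 61.1, 65.9 and 79.9 CPM in control and 776, 458 and 761 CPM in treated livers, an 11.8-fold rise after TMM scaling. Rank 56 (2377 nt) had 295, 404 and 299 CPM in control and 2724, 4194 and 2029 CPM in treated livers, an 11.2-fold rise. Ranks 166 (1400 nt) and 171 (1805 nt) rose 5.68-fold and 5.23-fold, with their highest treated level in mouse 3 and their lowest in mouse 2. Ranks 163, 166 and 171 had control means of 69.0, 128.1 and 131.5 CPM and thus entered the set through the treated livers. Rank 3 (889 nt) was the most abundant transcript that passed. It had 14868, 11346 and 18647 CPM in control and 33762, 33560 and 25474 CPM in treated livers. This was a 2.56-fold rise after TMM scaling (edgeR, adjusted p = 0.0312) and a ratio of mean CPM of 2.07. Rank 11 (1652 nt) was the other riser among the top 20, with 8535 to 9883 CPM in control and 10599 to 11406 CPM in treated livers and a 1.48-fold change (edgeR, adjusted p = 0.0472). Beyond the 2 named transcripts that fell, rank 130 (1935 nt) was the third, at 603, 661 and 746 CPM in control and 335, 345 and 350 CPM in treated livers. All ranks given here were picked after their values were seen. The reads of ranks 3 and 11 were fractional in the heart, so their counts are divided.

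After TMM scaling, calls occurred in each class of level and length. Beside them stand 6.09% of all tested transcripts called higher and 3.37% called lower. For the 317 comparison transcripts these shares were 15.5% and 3.79%. Differences between classes were not tested. Among transcripts of at least 5000 CPM, 3 of 23 were higher and 0 lower by edgeR, with 1 lower at an unadjusted p under 0.05. Between 1000 and 5000 CPM 6 of 58 tested were higher (10.3%) and 1 lower (1.72%). Below 1000 CPM 18 of 146 were higher (12.3%) and 2 lower (1.37%). This lowest class holds all transcripts that entered the set through 1 group, of which 8 were called higher and 1 lower. Its shares are therefore partly fixed by the rule. The classes by length and by whole or divided counts also include such transcripts. Of the 65 transcripts with whole counts 12 were higher (18.5%) and 2 lower (3.08%). Of the 132 tested with divided counts 11 were higher (8.33%) and 1 lower (0.758%). Among the 35 short transcripts tested 3 were higher (8.57%), although their median log2 fold change, 0.54, was above the 0.20 of the longer ones. The spread between mice was larger in the short class, as the next values show.

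The spread between mice of one group was described by the coefficient of variation, and whether it differs between sets was not tested. Its median among the 3 control livers was 0.163 for the set and 0.108 for the 317 others, and among treated livers it was 0.129 and 0.121. For the short transcripts it was 0.306 in control and 0.237 in treated livers, against 0.160 and 0.116 for those of 1000 nt or more. Without control mouse 3 the median of the set in controls was 0.0955, so this liver set much of the control value. Without treated mouse 1 the treated value was 0.0848. A coefficient above 0.5 in at least 1 group was found for 14 transcripts, of which 11 were short and 11 had divided counts. The 8th most abundant transcript (4837 nt) reached 19605 CPM in control mouse 3, against 7844 and 10146 CPM in the other controls and 10943 to 14487 CPM in treated livers.

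The short and the longer transcripts differed in which liver was low. In control mouse 2, 19 of the 36 short transcripts were at their lowest of the group, and 118 of the 192 longer ones at their highest. In control mouse 3, 23 short transcripts were at their highest, and 120 longer ones at their lowest. Among treated livers, mouse 3 had 20 short transcripts at their lowest and 79 longer ones at their highest. Shares within a library are bound to one another, and short transcripts took up to 20.6% of a liver's reads. That part in this pattern was not tested.

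**Figure D5:**
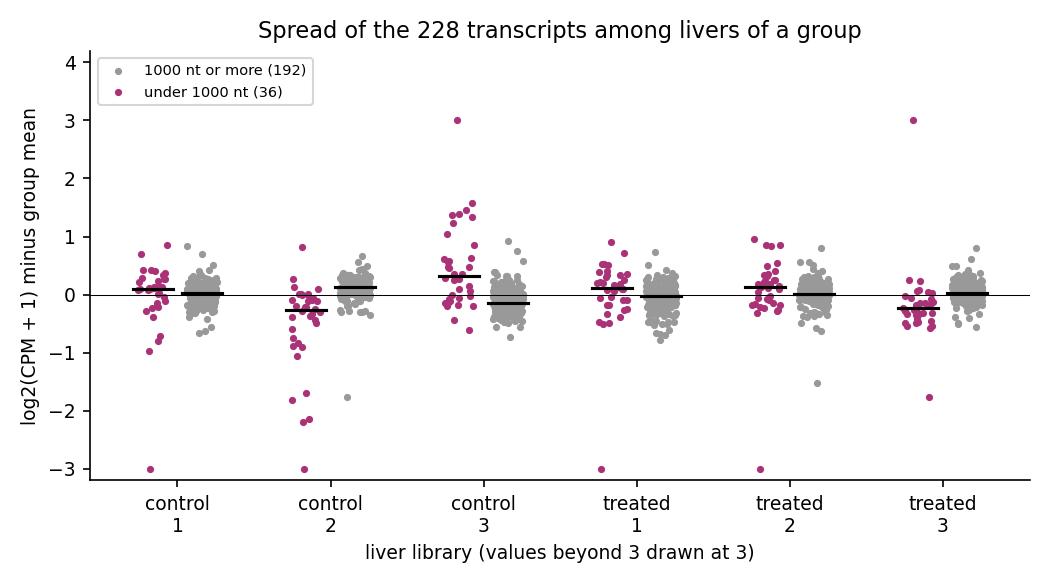
Deviation of log2(CPM + 1) from the mean of the group's 3 livers for each of 228 transcripts, per liver library; purple points are under 1000 nt, gray points 1000 nt or more, black bars are medians, and 6 points beyond 3 are drawn at 3. Short transcripts lie low in control mouse 2 (median -0.27) and treated mouse 3 (median -0.23) and high in control mouse 3 (median 0.31).

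In the heart the set was present in traces. Control hearts had 6573, 5294 and 5009 reads of the 228 transcripts together and treated hearts 4783, 6483 and 7384 reads. As summed CPM these were 325.8, 257.8 and 249.5 in controls and 254.9, 338.0 and 585.2 in treated mice. The groups overlapped, and the two-sided exact permutation test gave p = 0.3. The high value was in treated mouse 3, whose heart had the fewest reads in total, and without it the difference between group means fell from 115 to 18.7 CPM. Between 135 and 175 of the 228 had at least 1 read in a given heart. All 6 hearts had at least 1 read of 93 transcripts, and 12 had 0 reads in each heart. A count of 0 covers counting error only.

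A few transcripts gave a large share of the heart traces. The 5 highest in a heart held 35.8% to 51.3% of its sum. The highest mean, 41.8 CPM, belonged to rank 27 (2085 nt), which is also one of the 27 that rose in the liver. It had 34.9, 25.7 and 18.2 CPM in control and 48.0, 39.8 and 84.1 CPM in treated hearts. These did not overlap, but the difference did not pass (edgeR, log2 fold change 1.16, adjusted p = 0.303). In the liver it had 2817, 2342 and 2439 CPM in control and 4227, 8193 and 6285 CPM in treated mice, where it passed (edgeR, log2 fold change 1.61, adjusted p = 0.0257).

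No transcript of the set was called in the heart. There 70 of the 228 passed the filter on low counts, and edgeR called 0, against 0.404% of all 22281 tested called higher and 0.0898% called lower, or 0.494% in either direction. At an unadjusted p under 0.05, 4 were higher and 2 lower by edgeR, or 8.57% of the 70, against 10.8% of all. DESeq2, which covered 212 of the 228, called 2 higher and 0 lower, against 3.21% and 1.84% of all, with 2 lower at an unadjusted p under 0.05, and limma-voom called 0. Of the 30 transcripts called in the liver, 12 could be tested in the heart. The lowest adjusted p by edgeR in the heart, 0.0894, was at rank 53 (3161 nt), which had 0 reads in each control heart and 24.4, 19.9 and 19.0 reads in treated hearts. Its counts are divided among transcripts. The difference in response between the 2 organs was not tested.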

How the data were processed

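RNA from livers and hearts of 3 control and 3 treated mice was made into stranded libraries of polyadenylated RNA. The authors deposited estimated counts and TPM per transcript, without normalization of the counts. Salmon 0.8.2 and mm10 appear in the submitters' processing notes, as does DESeq2 1.20.0. Which release of the transcripts was used is not given in the sources here. Each file holds 2 tables of the same 51884 transcripts. The first was used. For the selected transcripts the tables differed by at most 21.9 reads.

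The members and lists were chosen with earlier results of these data known. CPM was computed from library totals. Estimated counts were rounded to whole numbers, filtered by edgeR's filterByExpr (minimum count 10), scaled by TMM and tested for liver and heart in separate quasi-likelihood fits, with Benjamini-Hochberg adjustment over all transcripts and a threshold of 0.05. Standard errors were obtained from the fold change and its F statistic. Summed levels were compared by exact permutation over libraries. Counts were called whole within 1e-06 and judged below 100000 reads. The fits were tested on simulated counts. Named transcripts had an adjusted p under 0.05 and all treated livers on one side of all controls. The largest change in each direction was taken, then the next largest with whole counts. Gene lists and markers set for symbols were not analysed here. Tests used edgeR 4.0.16, with DESeq2 1.42.0 and limma 3.58.1 as alternatives, in R 4.3.3. Tables and figures used pandas 2.3.3, NumPy 2.4.6 and Matplotlib 3.10.9 in Python 3.11.15.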

Additional observations from a re-analysis of the deposited data

How the results depend on the processing

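Of the liver transcripts of the set, 27 were higher and 3 lower. DESeq2 size factors and the second table each gave 27 and 3 again. Without the filter on low counts 18 were higher and 3 lower. Library totals alone gave 14 and 12, where the median log2 fold change was -0.086 instead of 0.22 and that of all transcripts -0.32 instead of -0.02. Upper-quartile factors gave 6 lower and a median of 0.13. A minimum count of 50 gave 6 lower, limma-voom 5 and bias-adjusted deviances (chosen after seeing the data) 5. DESeq2's Wald test gave 51 and 8, and all 12 libraries in 1 fit gave 10 higher. With a replicate block, edgeR called 3 higher and 0 lower, where 48 and 11 had an unadjusted p under 0.05. Mice were not treated as paired by number in the main fit. Deviations of same-numbered control and treated livers correlated at -0.04 to 0.01 and those of hearts at -0.02 to 0.03. Of 6 livers 1, and of 6 hearts 2, correlated best with their own number. With 3 mice per group, such correlations cannot exclude a pairing. Leaving out 1 liver gave 9 to 18 higher, 0 to 2 lower and a median of 0.14 to 0.25. In the hearts, DESeq2 gave 2 higher and all libraries in 1 fit gave 3 higher and 1 lower. Leaving out 1 heart gave 0 to 0 in both directions.

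The summed CPM difference kept its direction under each alternative run, from 38041 to 53998 in the liver and from 18.7 to 184 in the heart without 1 library. Liver and heart gave 156043 and 124 with TMM factors, and 892 and 4.28 with whole counts alone. The median coefficient of variation was 0.0955 to 0.166 in control and 0.0848 to 0.121 in treated livers without 1 library. For the 4 named transcripts no direction reversed, and 9 values under alternatives no longer passed. Apart from fewer samples where libraries were left out, the cause was not tested. Depth limits the heart values, where the median transcript of the set had 1 to 4.87 reads.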

Other observations

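In the set, 3 transcripts share a length of 881 nt, and their estimated reads were placed unevenly among livers. Rank 41 had 6226 CPM in control mouse 3 and 9188 CPM in treated mouse 3, and under 0.001 CPM in each of the other 4 livers. It was the only one of the 228 that did not pass the liver's filter on low counts. Rank 5 had 18123, 7366 and 18899 CPM in control and 25485, 24777 and 4018 CPM in treated livers, so that treated mouse 3, where rank 41 was highest, was lowest. The 3 transcripts together had 18802, 7460 and 26271 CPM in control and 26166, 26488 and 13967 CPM in treated livers. Whether they share sequence was not analysed here.

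The 23 most abundant transcripts of the set, each at 5000 CPM or more, were also compared between the liver and heart of each mouse. The median of the liver-to-heart ratio of CPM in the same mouse was 5234, 9804 and 7462 in controls and 15032, 3350 and 2105 in treated mice. From the lower to the upper quartile the 23 ratios ran from 3296 to 7202 in control mouse 1 and from 2391 to 4421 in treated mouse 2. Over all 228 transcripts, Spearman's rank correlation of the heart with the liver of the same mouse was 0.38 to 0.63. It is a description across transcripts of one pair of libraries, many of them at a few reads in the heart, and its source was not tested.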
